A study of Mus musculus with 12 samples.

Results

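The comparison described here set mouse embryonic fibroblasts (MEFs) carrying a GFP control vector after 21 days in an osteogenic medium against the same kind of cells at day 1. Its members were set by their labels, with earlier results of these data known. They were the 3 libraries labelled vector at day 21 and the 3 labelled vector at day 1, 6 of the 12 libraries of the series. Every gene entered that reached 1 RPM (reads per 1000000) in 3 or more of the 12 libraries. That filter left 13516 of 55573 listed genes. All cells of the study came from p53-/- mice with a β-actin-TVA transgene, which puts an avian virus receptor under the β-actin promoter so that avian RCAS vectors can enter mouse cells. The vector cells carried RCAS-GFP and the other cells of the study RCAS-HOXB13. The day 21 wells had been switched from serum medium to OsteoMAX-XF, a commercial osteogenic differentiation medium, with regular changes of medium. All plates were coated with gelatin. The day 1 wells were harvested at confluence after a night in DMEM with 5% FBS. Day, medium and the plate harvested therefore went together and cannot be told apart. The labels name no separate cultures or animals behind the 3 wells of a day. The fit pooled the spread between wells over all 12 libraries, HOXB13 cells included, so every p measures that pooled spread, which may be technical.

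In an osteoblast lineage the factor Runx2 acts first, Sp7 (osterix) follows, collagen is laid down and alkaline phosphatase (Alpl) releases phosphate for mineral. Late genes such as Bglap (osteocalcin), Ibsp and Dmp1 mark mature osteoblasts and osteocytes. Fibroblasts in culture on plastic with serum often take on a contractile, dividing state with smooth muscle actin and stress fibres, and they can also answer inflammatory signals with acute-phase proteins and chemokines. MEFs are a mixed population from whole embryos, so a bulk library cannot tell fewer cells of a type from less RNA per cell.

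The libraries held 12173173 to 13235707 gene reads at day 21 and 11109392 to 13594129 gene reads at day 1, and 1 read was worth 0.0742 to 0.0909 RPM. Values are RPM of the scaled library size, and a log2 fold change is a difference of mean log2(RPM + 1), day 21 minus day 1, with its standard error (SE) from a limma fit. A gene passed the test at a Benjamini-Hochberg adjusted p under 0.05. Log2 values correlated at 0.997 among the day 21 wells and among the day 1 wells, and at 0.876 to 0.880 between the days. Mitochondrial transcripts took 2.67% ± 0.158 of reads at day 21 and 1.14% ± 0.0649 at day 1 (SD, n = 3 each). Trp53 had 34.3, 38.1 and 37.6 RPM in day 21 wells, against 52.2, 53.7 and 54.5 RPM in day 1 wells, although all cells are labelled p53-/-. A gene total cannot show which exons remain, so it does not check the deletion. Hoxb13 stayed at or under 0.571 RPM in every vector well.

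Most genes moved. Of 13516 genes tested, 11294 passed the test (83.6%), 5630 higher (41.7%) and 5664 lower (41.9%) at day 21. At least 2-fold changes were fewer, 3799 in all (28.1%), 2173 higher (16.1%) and 1626 lower (12%), and 685 genes were at least 4-fold higher (5.07%) against 286 at least 4-fold lower (2.12%). For 11310 genes (83.7%) the wells of the 2 days did not overlap, 41.8% higher and 41.9% lower. The median log2 fold change of all tested genes was -0.00025, with quartiles of -0.54 and 0.61. These shares are the background against which each gene list, and each gene whose wells did not overlap, is read.

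**Figure D1:**
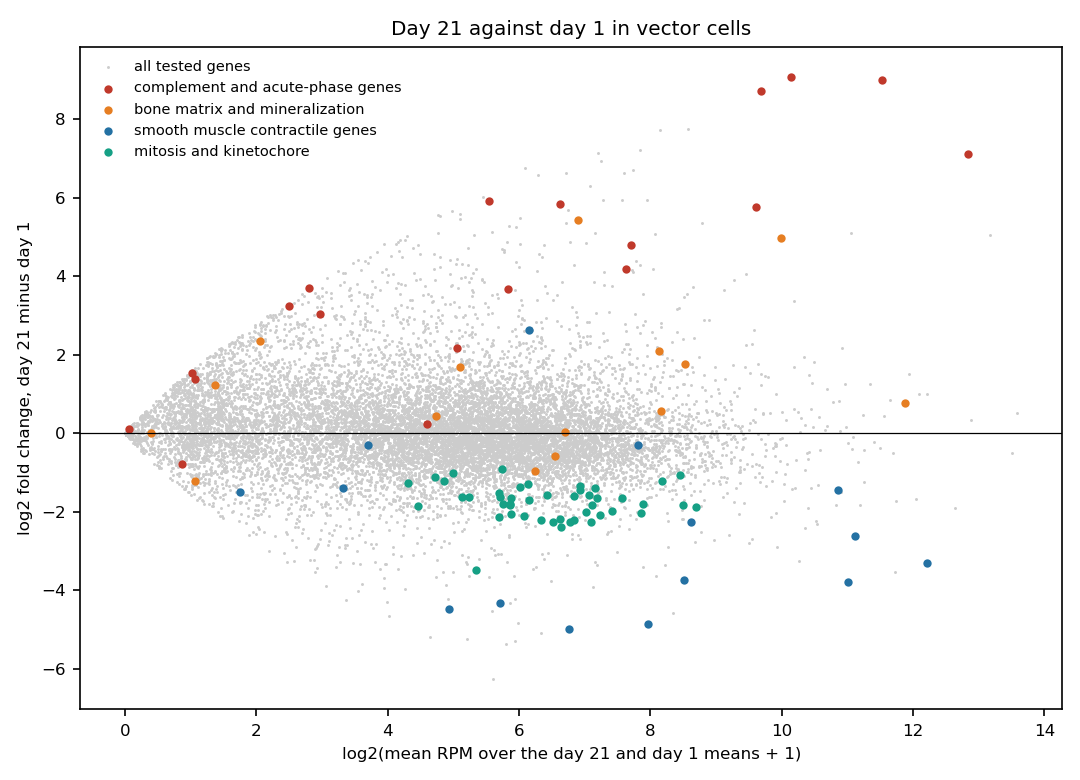
Log2 fold change of day 21 minus day 1 in vector cells (vertical axis) against the log2 mean RPM + 1 of the 2 days (horizontal axis), 1 grey point per tested gene, with 4 gene lists coloured. Acute-phase genes reach 9.07, smooth muscle genes reach -4.99, and all 46 mitosis genes lie below 0.

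The label was checked against markers of cell types. All 14 fibroblast markers were measured, with summed levels of 43024 to 46777 RPM in day 21 wells, against 38821 to 39964 RPM in day 1 wells. Of these, 9 were higher and 4 lower at day 21. The collagen-binding proteoglycans Dcn and Lum were among those that rose. The surface protein Thy1 and the intermediate filament Vim were lower. Dcn had 1194, 1106 and 1172 RPM in day 21 wells, against 80.9, 74.4 and 76.1 RPM in day 1 wells. Lum had 78.3, 62.7 and 56.2 RPM in day 21 wells, against 2.36, 2.08 and 2.62 RPM in day 1 wells. Thy1 had 151, 141 and 147 RPM in day 21 wells, against 571, 554 and 572 RPM in day 1 wells. The day 21 and day 1 wells did not overlap for any of these genes, as for 83.7% of all tested genes.

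Some defining markers of blood, skeletal muscle and endothelial cells were at or near 0, while other members of these lists were measured. The blood cell gene Ptprc (CD45) was at or under 0.150 RPM in every vector well, and the macrophage genes Tyrobp, C1qa and C1qb had no read. Of 15 macrophage and osteoclast markers 5 were measured and 4 rose, Cd14, Csf1r, Acp5 and Ctsk, of which several are also made outside that lineage. The muscle factors Myod1, Myog, Myf5 and Myf6 had no read. Of 10 skeletal muscle markers 2 were measured and lower. The endothelial genes Pecam1 and Cdh5 stayed at or under 0.156 RPM, and the epithelial gene Epcam at or under 0.300 RPM. Of 10 endothelial markers 3 were measured, 2 higher and 1 lower. The endothelial list summed to 34.2 to 36.3 RPM in day 21 wells, against 17.1 to 18.2 RPM in day 1 wells. Adipoq, a product of mature adipocytes, was at or under 0.545 RPM. Of 9 adipocyte markers 3 were measured, 2 higher and none lower. The adipocyte marker list summed to 89.9 to 99.8 RPM in day 21 wells, against 13.7 to 16.55 RPM in day 1 wells.

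Epithelial markers, 6 of 10 measured and several shared with mesothelium, summed to 324 to 344 RPM in day 21 wells, against 342 to 356 RPM in day 1 wells, with 3 higher and 3 lower. Tendon markers, 7 of 7 measured, summed to 563 to 699 RPM in day 21 wells, against 2651 to 2763 RPM in day 1 wells, most of it Tnc. Pericyte markers, 8 of 8 measured, summed to 204 to 223 RPM in day 21 wells, against 406 to 418 RPM in day 1 wells. Neural markers, 4 of 11 measured, summed to 147 to 157 RPM in day 21 wells, against 157 to 165 RPM in day 1 wells.

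Mesothelial markers had the highest sum in day 21 wells among the lists of cell types other than fibroblasts. All 12 mesothelial markers were measured, and their summed level was 4567 to 4663 RPM in day 21 wells, against 1713 to 1780.3 RPM in day 1 wells. Mesothelium lines body cavities and shares keratins with epithelium. Of the 12, 9 were higher, 2 (Krt8 and Cdh3) lower, and Podxl did not pass the test, with a list median of 1.19. Mesothelin, Msln, had 673, 677 and 654 RPM in day 21 wells, against 58.2, 65.5 and 55.1 RPM in day 1 wells. The mucin gene Muc16 had 173, 162 and 186 RPM in day 21 wells, against 14.99, 14.0 and 14.1 RPM in day 1 wells. The membrane protein gene Upk3b had 1155, 1133 and 1177 RPM in day 21 wells, against 251, 237 and 238 RPM in day 1 wells, and the transcription factor gene Wt1 had 255, 262 and 265 RPM in day 21 wells, against 107, 102 and 111 RPM in day 1 wells. Each of these 4 genes was higher in every day 21 well than in any day 1 well, as were 41.8% of all tested genes. Cdh1 (E-cadherin) rose with them, with 47.4, 49.2 and 48.8 RPM in day 21 wells, against 2.73, 2.15 and 2.02 RPM in day 1 wells. Their part in the results below was not tested.

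**Figure D2:**
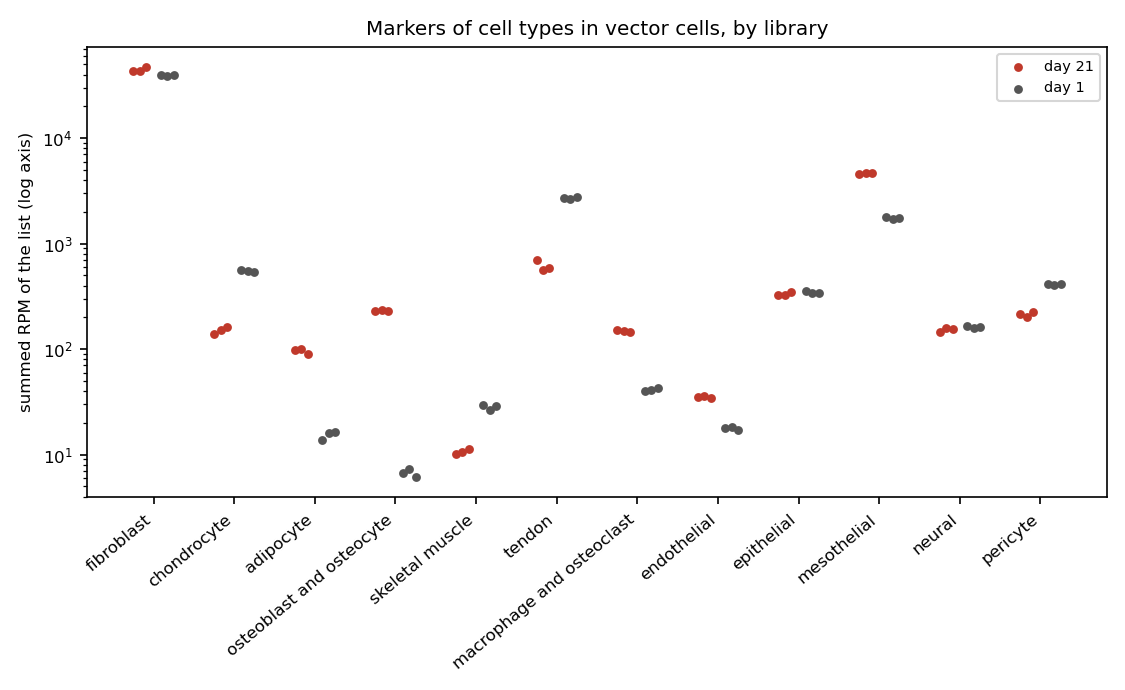
Summed RPM of 12 marker lists on a log axis, 1 point per vector well, day 21 in red to the left of day 1 in grey. The mesothelial sum is 4567 to 4663 RPM in day 21 wells and 1713 to 1780.3 RPM in day 1 wells, and the osteoblast sum is carried by Alpl.

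Several acute-phase and complement genes were among those with the highest fold change. Of the 12 genes with the highest fold change under the naming rule, Lcn2, Saa3, Hp, C3 and Lbp belong to the acute-phase response. Lcn2, lipocalin 2, which binds the iron carriers of bacteria, had 2309, 2159 and 2291 RPM in day 21 wells, against 3.82, 2.82 and 2.995 RPM in day 1 wells. Its log2 fold change was 9.07 ± 0.058, adjusted p = 8.25e-32. Saa3, a serum amyloid A made outside the liver in mice, had 5642, 5703 and 6302 RPM in day 21 wells, against 10.5, 9.28 and 11.6 RPM in day 1 wells. Its log2 fold change was 9.01 ± 0.051, adjusted p = 1.06e-32. Both genes were named by a rule that required no overlap between the days, so their separation is not a result.

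Hp (haptoglobin), which binds free haemoglobin, had 1599.6, 1661 and 1635 RPM in day 21 wells, against 3.18, 2.23 and 3.30 RPM in day 1 wells. C3, the central complement component, had 14204, 14164 and 15396 RPM in day 21 wells, against 109, 104 and 102 RPM in day 1 wells. Lbp, which binds bacterial lipopolysaccharide, had 763, 742 and 776 RPM in day 21 wells, against 2.18, 2.45 and 3.07 RPM in day 1 wells. Log2 fold changes were 8.72 ± 0.091 for Hp, 7.11 ± 0.065 for C3 and 7.74 ± 0.10 for Lbp. The protease inhibitor gene Serpina3n rose as well, with 424, 395 and 446 RPM in day 21 wells, against 3.91, 2.38 and 2.92 RPM in day 1 wells.

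Across the list of complement and acute-phase genes, 17 of 19 measured members were higher, 16 of them at least 2-fold, and Cd59a, an inhibitor of the membrane attack complex, was lower. C7 did not pass the test. The list median was 3.69, against -0.00025 over all genes tested, and the summed level was 26399 to 28534 RPM in day 21 wells, against 217 to 235 RPM in day 1 wells. C4b and C1s1 of the classical pathway changed by 5.92 and 4.81, and the inhibitor Serping1 by 5.84. Cfb, of the alternative pathway, had 12.3, 11.2 and 12.2 RPM in day 21 wells and no read in any day 1 well. Against the floor of 3 reads over the group, it was at least 150.1-fold higher at day 21. Orm1 had 8.89, 8.40 and 10.2 RPM in day 21 wells, against 0, 0.0742 and 0.150 RPM in day 1 wells.

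Short stretches before the annotated starts of Saa3 and C3 are printed because both hold the letters of a C/EBP site core, a motif of the C/EBP family that acts at acute-phase genes. The motif, searched on both strands as TTGCNNAA after the values were seen, is in capitals. Sequences are from RefSeq on GRCm38.p6, read on the gene's strand, at chr7:46715677-46715796 (minus strand) and chr17:57228137-57228256 (minus strand).
Saa3: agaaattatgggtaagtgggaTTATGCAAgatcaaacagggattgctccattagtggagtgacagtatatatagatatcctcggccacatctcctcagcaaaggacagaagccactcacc
C3: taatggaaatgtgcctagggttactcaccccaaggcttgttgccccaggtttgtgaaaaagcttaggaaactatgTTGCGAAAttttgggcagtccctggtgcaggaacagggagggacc
The match begins 99 bases before the start in Saa3 and 45 bases before it in C3. Of 10 measured list members with a promoter in the table, 5 held the motif within 250 bases (50%). The share was 9.55% of all 27025 promoters and 7.37% of the 10234 promoters of tested genes. An NF-kappaB core (GGGA, any 2 bases, T, any base, CC) was in 0 of the 10 and in 3.23% of all promoters. Of promoters of tested genes 3.58% held that core. A match is a run of letters and not evidence of binding.

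Some genes that handle iron also changed. Fth1, the ferritin heavy chain that stores iron, had 17534, 18089 and 18146 RPM in day 21 wells, against 542, 545 and 549 RPM in day 1 wells, a log2 fold change of 5.04 ± 0.024, adjusted p = 5.29e-34. Steap4, a metalloreductase, had 551, 559 and 584 RPM in day 21 wells, against 1.36, 1.71 and 2.02 RPM in day 1 wells. Cp (ceruloplasmin), which oxidises iron for export, had 1559, 1479.9 and 1573 RPM in day 21 wells, against 26.1, 26.0 and 30.9 RPM in day 1 wells. None of these overlapped between the days, as for 83.7% of all tested genes, and for Steap4 that was a condition of naming. The next 5 iron genes were picked after their values were seen. The ferritin light chain Ftl1 changed by 1.41 ± 0.036, the iron transporter Slc11a2 by 1.70 ± 0.039, the ferritin-degrading receptor Ncoa4 by 1.97 ± 0.063 and transferrin, Trf, by 4.43 ± 0.14. The transferrin receptor Tfrc was lower, with 62.4, 59.8 and 58.0 RPM in day 21 wells, against 174, 190.0 and 187 RPM in day 1 wells. Ferritin genes have near-identical pseudogenes, so the counting could have lost or divided their reads.

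Among the other named genes with the highest fold change, Epas1 encodes an oxygen-regulated transcription factor (HIF-2α) and had 304, 294 and 305 RPM in day 21 wells, against 0.9996, 2.30 and 1.27 RPM in day 1 wells. Vnn1, a pantetheinase, had 290.0, 297 and 288 RPM in day 21 wells, against 1.27, 1.11 and 0.899 RPM in day 1 wells. The flavin monooxygenase Fmo2 and the secreted protein gene Lgi2 rose by 6.76 and 6.64 on the log2 scale. No overlap between the days was a condition of naming these genes, so it is not a result. Among abundant genes that rose, the retinoic acid-making enzyme Aldh1a1 had 4091, 4156 and 4182 RPM in day 21 wells, against 122, 117 and 122 RPM in day 1 wells, and the phospholipid-binding protein gene Anxa1 changed by 2.16. Heg1, a membrane protein, and Ezr, which links membrane to actin, changed by 3.38 and 1.93, and App by 1.28.

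**Figure D3:**
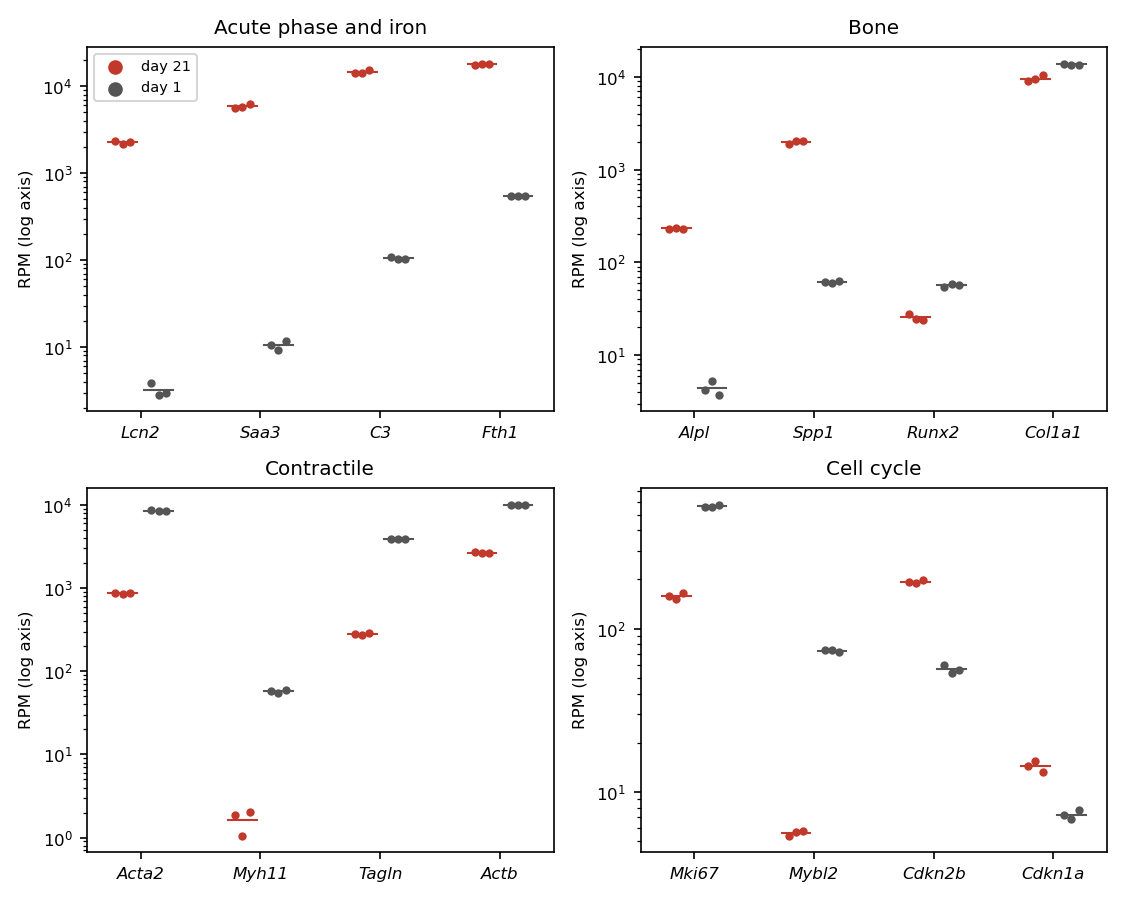
RPM of 16 named genes on log axes, 1 point per vector well with the mean as a line, day 21 in red to the left of day 1 in grey. The wells of the 2 days do not overlap for any of the 16 genes, as for 83.7% of all tested genes.

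Bone genes did not move as one. Alpl and Spp1 rose, most measured osteoblast transcription factors fell, and Bglap, Ibsp and Dmp1 were at or near 0. Alpl had 229, 236 and 231 RPM in day 21 wells, against 4.27, 5.27 and 3.74 RPM in day 1 wells, a log2 fold change of 5.44 ± 0.10, adjusted p = 1.17e-23. Spp1 (osteopontin), a phosphoprotein of bone that many other cells also make, had 1873, 2017 and 2003 RPM in day 21 wells, against 61.8, 60.6 and 62.8 RPM in day 1 wells, a log2 fold change of 4.97 ± 0.035, adjusted p = 5.07e-31. For both, the lowest day 21 well lay far above the highest day 1 well.

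Of 15 measured bone matrix and mineralization genes, 10 were higher and 3 lower, against 41.7% and 41.9% of all genes, and 7 were at least 2-fold higher, with a median of 0.76. Phospho1 and Smpd3, enzymes that act in matrix vesicles and lipids during mineralization, changed by 1.23 and 1.76. Phospho1 was low, with 2.36, 2.40 and 3.04 RPM in day 21 wells, against 0.818, 0.445 and 0.374 RPM in day 1 wells. Mgp, an inhibitor of mineral, had 52.3, 48.6 and 52.4 RPM in day 21 wells, against 15.6, 14.8 and 15.3 RPM in day 1 wells. Pdpn (podoplanin), which marks young osteocytes but also mesothelium, had 450.3, 449.8 and 454 RPM in day 21 wells, against 107, 99.8 and 107 RPM in day 1 wells, and Ostn (osteocrin) changed by 2.36. The lower genes were Phex, an osteocyte endopeptidase, the pyrophosphate exporter Ank and the phosphate importer Slc20a1, at -1.21, -0.95 and -0.57. Omd and Slc20a2 did not pass the test.

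Bglap, Bglap2, Ibsp, Dmp1, Mepe, Sost and Ifitm5 did not reach the filter. Bglap had 0, 0 and 0.0779 RPM in day 21 wells, against 0, 0 and 0 RPM in day 1 wells. Ibsp had 0, 0.0750 and 0.0779 RPM in day 21 wells, against 0, 0 and 0 RPM in day 1 wells. Bglap2, Dmp1, Mepe and Sost had no read in any vector well. A count of 0 in 3 wells allows up to 0.0780 RPM at day 21, a limit for counting error only.

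The osteoblast transcription factors were lower on balance of counts. Of 11 measured, 8 were lower, Runx1 was higher and Atf4 and Tcf7 did not pass the test, with a median of -0.75. Runx2 had 27.97, 24.6 and 24.1 RPM in day 21 wells, against 54.2, 58.3 and 56.6 RPM in day 1 wells, a log2 fold change of -1.11 ± 0.058, adjusted p = 1.34e-14. All 3 day 21 wells lay below all 3 day 1 wells. The Wnt effector Lef1 had 0.326, 0.450 and 0.0779 RPM in day 21 wells, against 6.63, 6.16 and 6.29 RPM in day 1 wells, and the partner of Runx proteins, Cbfb, changed by -0.75. Sp7 had 0.245, 0.225 and 0 RPM in day 21 wells, against 0.363, 0 and 0.300 RPM in day 1 wells, which overlapped and lay under the filter, as did Dlx3, Dlx5, Dlx6, Msx1 and Msx2. Runx1 had 129, 132 and 133 RPM in day 21 wells, against 94.4, 91.9 and 101 RPM in day 1 wells.

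Of the cytokines by which bone cells direct osteoclasts, Tnfsf11 (RANKL), the osteoclast-inducing ligand, had 49.1, 42.7 and 50.4 RPM in day 21 wells, against 5.54, 5.72 and 4.49 RPM in day 1 wells. Its decoy receptor Tnfrsf11b (osteoprotegerin) had 5.54, 6.90 and 4.44 RPM in day 21 wells, against 15.2, 14.6 and 15.1 RPM in day 1 wells. The macrophage growth factors Csf1 and Il34 were higher by 0.41 and 0.62. The log2 fold changes were 2.96 ± 0.10, adjusted p = 1.37e-18 for Tnfsf11 and -1.29 ± 0.12, adjusted p = 1.32e-09 for Tnfrsf11b, so ligand and decoy moved in opposite directions. Of 17 cartilage markers 8 did not reach the filter. Of the 9 measured, 5 were lower and 2 higher, against 41.9% and 41.7% of all genes. Their factor Sox9 had 18.4, 20.2 and 19.4 RPM in day 21 wells, against 27.99, 30.2 and 29.6 RPM in day 1 wells.

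Glucocorticoid receptor targets were mostly higher. Glucocorticoids bind a nuclear receptor that turns on a known set of genes in many cells. Of 19 measured targets, 17 were higher, 15 at least 2-fold, and Dusp1 and Errfi1 lower, with a median of 3.07. Zbtb16, a transcription factor, had 60.5, 60.8 and 60.7 RPM in day 21 wells, against 0.273, 0.223 and 0.150 RPM in day 1 wells. Pdk4, which restrains entry of pyruvate into mitochondria, had 195, 209 and 206 RPM in day 21 wells, against 4.73, 3.71 and 3.59 RPM in day 1 wells. Tsc22d3 (GILZ) changed by 3.77 ± 0.054, Fkbp5, a chaperone of the receptor, by 2.41 ± 0.031, Klf15 by 3.88 ± 0.12 and glutamine synthetase, Glul, by 3.84 ± 0.048. None of these 6 overlapped between the days, as for 83.7% of all tested genes. Zbtb16, Pdk4 and Klf15 were named for the size of their change. Lcn2, Mt1 and Mt2 are on this list and on others, so the lists are not independent. The full palindrome (AGAACA, any 3 bases, TGTTCT) was in none of 15 members' promoters of 250 bases and in 0.00370% of all promoters. None of the promoters of tested genes held it.

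Metallothioneins, which bind zinc, rose, as did several zinc importers. Mt2 had 274, 277 and 279 RPM in day 21 wells, against 7.91, 7.42 and 6.14 RPM in day 1 wells. Mt1 had 281, 301 and 305 RPM in day 21 wells, against 15.6, 15.7 and 16.8 RPM in day 1 wells. Slc39a8 and Slc39a14, which import zinc, changed by 2.92 ± 0.062 and 1.57 ± 0.040, and Slc39a6 was lower at -0.64. Of 10 measured members 8 were higher and 2 lower, with a median of 0.68. The metal response core TGCNCNC was in 5 of 8 members' promoters (62.5%), against 43.8% of all promoters and 52.7% of those of tested genes. Mt1 and Mt2 are close in sequence, so the split between them is uncertain.

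In the clock list 12 of 19 members were higher and 3 lower, with a median of 0.32. The nuclear receptor Rora, which drives clock genes, changed by 2.09 ± 0.081, and the period genes Per1, Per2 and Per3 by 1.28, 0.96 and 1.01. The labels give no hour of harvest, and the hour cannot be told apart from the day. The E-box CACGTG was in 5 of 16 clock promoters (31.2%), against 6.05% of all promoters and 8.45% of those of tested genes.

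**Figure D4:**
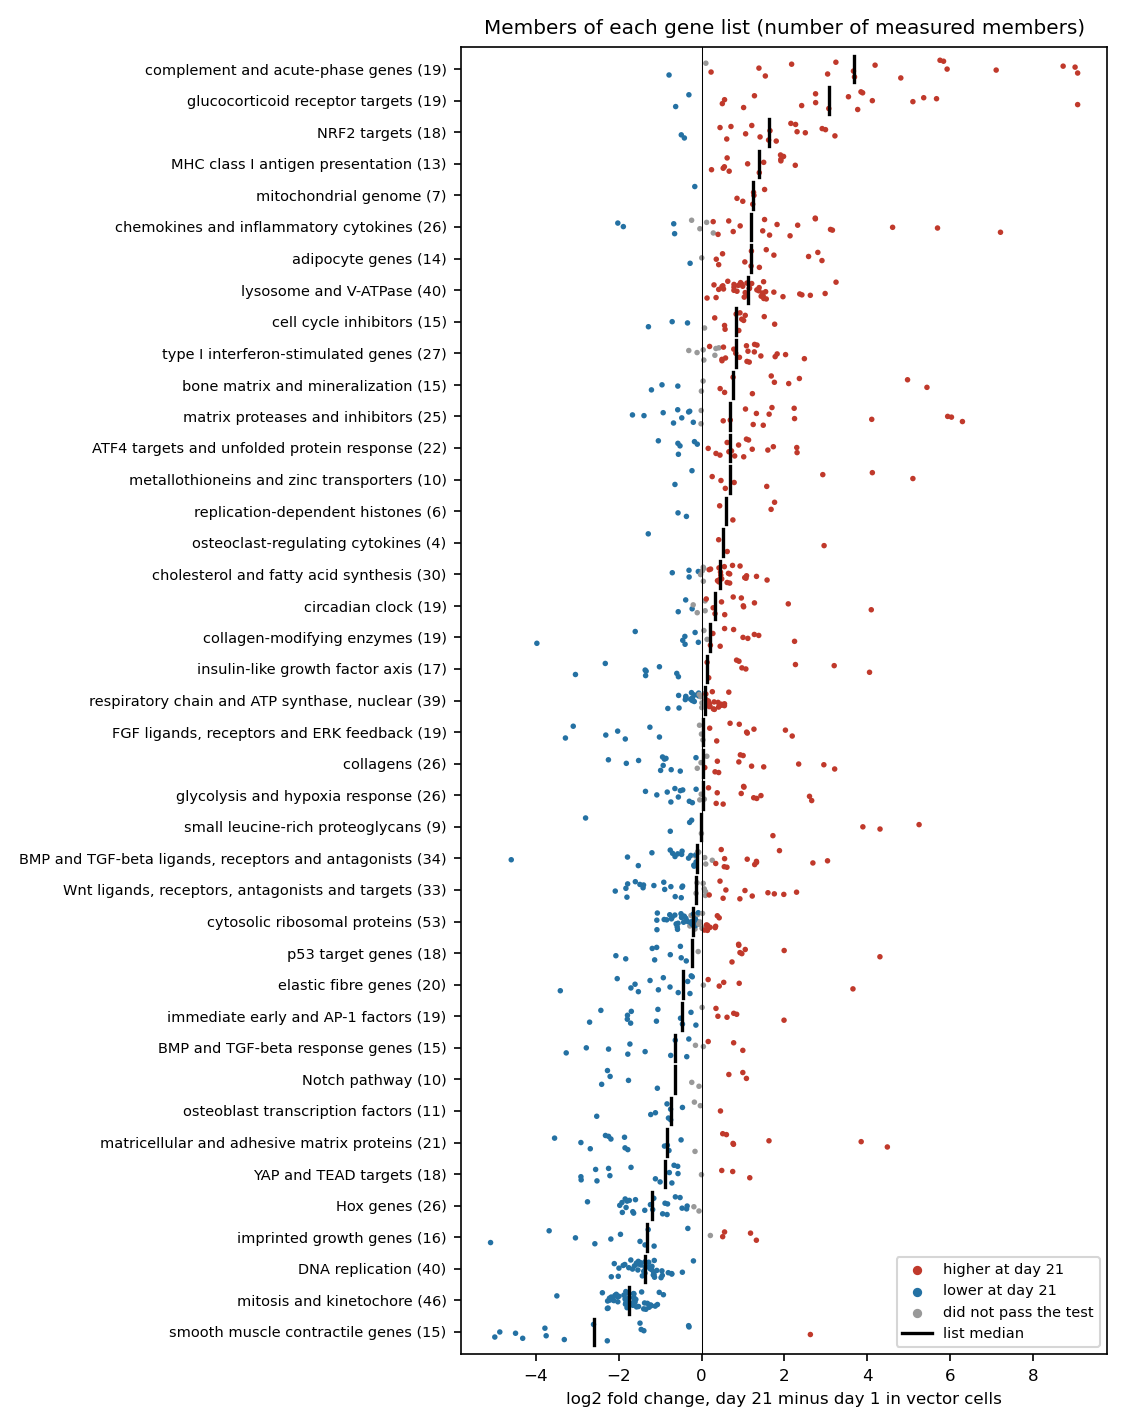
Log2 fold change of day 21 minus day 1 (horizontal axis) for every measured member of 41 gene lists, coloured by the test, with the list median as a black bar and lists ordered by it. The medians run from 3.69 for complement and acute-phase genes to -2.61 for smooth muscle contractile genes.

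Matrix genes moved in both directions. Collagens divided almost evenly, with 12 higher and 11 lower of 26, each a share near the background. The fibril gene Col1a1 was lower, with 8991, 9328 and 10305 RPM in day 21 wells, against 13832, 13500.2 and 13480.5 RPM in day 1 wells, while its partner Col1a2 changed by 0.32 ± 0.030 and Col3a1 by 1.002 ± 0.039. The call of Col1a2 was lost under quantile normalization, at 0.10. Col18a1, a basement membrane collagen, had 213, 192 and 200.04 RPM in day 21 wells, against 23.2, 19.6 and 20.1 RPM in day 1 wells. Col11a1, which seeds fibrils, had 96.1, 106 and 118 RPM in day 21 wells, against 523, 505 and 499 RPM in day 1 wells. Col23a1 and Col24a1 were higher by 2.95 and 2.34, and Col7a1 and Col6a3 changed by -1.82 and -1.52.

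Small leucine-rich proteoglycans, which bind collagen fibrils, held some of the largest matrix changes in both directions, 4 higher and 4 lower of 9. Their median was near 0 and changed sign with the settings. Prelp had 115, 119 and 124 RPM in day 21 wells, against 2.36, 1.78 and 2.40 RPM in day 1 wells. Fmod, a tendon and cartilage member, changed by 1.72 ± 0.13. Aspn, which is known to inhibit TGF-beta, had 8.40, 4.72 and 7.16 RPM in day 21 wells, against 51.3, 47.2 and 57.5 RPM in day 1 wells. Among enzymes that modify collagen, 10 of 19 were higher and 7 lower. The procollagen protease Adamts2 had 404, 399.8 and 417 RPM in day 21 wells, against 86.4, 83.9 and 85.2 RPM in day 1 wells, and Pcolce2, an enhancer of such proteases, had 1.63, 1.57 and 0.779 RPM in day 21 wells, against 38.2, 32.6 and 34.4 RPM in day 1 wells. Adamts14 and the lysyl hydroxylase Plod1 were higher by 1.38 and 1.27, and P4ha3, a prolyl hydroxylase subunit, changed by -1.60.

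Matrix proteases and their inhibitors were more often higher than lower. Of 25 measured proteases and inhibitors 14 were higher and 9 lower, against 41.7% and 41.9% of all genes, with a median of 0.69. At least 2-fold higher were 12, against 16.1% of all genes. Mmp13, the collagenase of bone and cartilage, had 254, 264 and 279.8 RPM in day 21 wells, against 2.18, 2.23 and 2.85 RPM in day 1 wells. Mmp3, stromelysin, had 516, 435 and 500.1 RPM in day 21 wells, against 7.54, 6.24 and 6.96 RPM in day 1 wells, and the collagenase Mmp8 had 83.6, 85.2 and 86.4 RPM in day 21 wells, against 0.363, 0.297 and 0.300 RPM in day 1 wells. Each was low in all day 1 wells. Adamts15 and Adamts7, which cleave matrix proteins, changed by 4.10 ± 0.14 and 2.23 ± 0.044, and the inhibitor Timp2 by 1.49 ± 0.025.

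Matricellular and adhesive proteins went the other way, with 13 of 21 lower, 9 of them at least 2-fold, and a median of -0.83. Thbs1, thrombospondin 1, had 549, 507 and 541 RPM in day 21 wells, against 6199, 6189.9 and 6268 RPM in day 1 wells. Ccn1, an adhesive signal protein, Postn (periostin) and Tnc (tenascin C) changed by -2.91 ± 0.030, -2.68 ± 0.064 and -2.32 ± 0.063. The exceptions included Spon1 and Tnxb, at 4.48 ± 0.093 and 3.85 ± 0.12. Of 20 elastic fibre genes 14 were lower and 5 higher. Ltbp1, which holds TGF-beta in the matrix, had 44.8, 38.1 and 36.7 RPM in day 21 wells, against 425, 425 and 443 RPM in day 1 wells. Efemp1 (fibulin 3) rose, with 1018, 1023 and 1053 RPM in day 21 wells, against 81.1, 82.0 and 80.4 RPM in day 1 wells. Mfap5, Fbln5, Ltbp4 and Fbn2 changed by -2.03, -1.70, -1.61 and -1.52.

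Contractile genes fell the most of any list examined by median. Smooth muscle genes mark the activated myofibroblast in such cultures. Of 15 measured, 14 were lower, 12 at least 2-fold, and only Mylk, the kinase of myosin light chains, was higher, at 2.62 ± 0.061. The median was -2.61 and the summed level 3257 to 3355 RPM in day 21 wells, against 21266 to 21641 RPM in day 1 wells. Acta2, smooth muscle actin, had 868, 847 and 875 RPM in day 21 wells, against 8688, 8548 and 8495 RPM in day 1 wells, a log2 fold change of -3.31 ± 0.031, adjusted p = 8.40e-29. Tagln (SM22) had 279.8, 275 and 285 RPM in day 21 wells, against 3845, 3864 and 3845 RPM in day 1 wells. Cnn1 (calponin) had 17.1, 13.7 and 15.96 RPM in day 21 wells, against 481, 484 and 479.6 RPM in day 1 wells. The days did not overlap for these genes, as for 83.7% of all tested genes, and for Cnn1 that was a condition of naming.

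The motor protein gene Myh11 had 1.88, 1.05 and 2.02 RPM in day 21 wells, against 58.5, 55.4 and 58.9 RPM in day 1 wells, and the myosin light chain Myl9 had 51.9, 43.5 and 53.3 RPM in day 21 wells, against 677, 660.2 and 691 RPM in day 1 wells. Lmod1, an actin nucleator of smooth muscle, and Actg2, an enteric actin, changed by -4.31 ± 0.10 and -4.99 ± 0.13. Myocd (myocardin), the coactivator that drives such genes, had 0.652, 0.825 and 0.857 RPM in day 21 wells, against 4.09, 4.01 and 3.82 RPM in day 1 wells. Smtn and Des changed least, at -0.30 and -0.31. Actin genes are close in sequence, so reads may have been divided among them.

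Of the abundant genes named because they were at least 2-fold lower, many encode parts of the cytoskeleton, a direction that the naming rule fixed. Actb, cytoplasmic actin, had 2712, 2646 and 2681 RPM in day 21 wells, against 9945, 10116 and 9960.1 RPM in day 1 wells. The crosslinker Flna and the motor Myh9 changed by -1.69 ± 0.024 and -1.74 ± 0.024. Tropomyosins Tpm1 and Tpm4 changed by -2.61 ± 0.028 and -1.84 ± 0.025, Cald1 by -1.46 ± 0.025, Vim by -1.82 ± 0.023 and the tubulin Tubb5 by -1.51 ± 0.024. The matrix gene Fbln2 changed by -1.24 ± 0.024. TVA is driven by the β-actin promoter in these mice. Its level was not measured here.

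Targets of YAP and TEAD, which respond to tension and cell density, fell in 14 of 18 members, with 3 higher and a median of -0.89. Ankrd1 had 78.8, 65.8 and 71.2 RPM in day 21 wells, against 532, 552 and 549 RPM in day 1 wells. Ccn2 (CTGF) had 515, 520.4 and 491 RPM in day 21 wells, against 2355, 2458 and 2428 RPM in day 1 wells. Ajuba, the tissue factor gene F3 and Fjx1 changed by -2.56, -2.52 and -2.21. Every one of these genes was lower in all 3 day 21 wells than in any day 1 well, as were 41.9% of all tested genes. They were named for the size of their change.

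The genes with the lowest fold change under the naming rule also included surface genes of pericytes. Cspg4 (NG2) had 1.63, 1.65 and 1.56 RPM in day 21 wells, against 103, 109 and 111 RPM in day 1 wells, and Mcam (CD146) had 1.79, 2.02 and 2.34 RPM in day 21 wells, against 120.4, 119.6 and 116 RPM in day 1 wells. The other pericyte markers did not follow, with 4 of 8 higher. Sprr2k had 0.326, 0.375 and 0.0779 RPM in day 21 wells, against 98.7, 93.2 and 93.3 RPM in day 1 wells. The tolloid-like protease Tll1 and the membrane protein Lrrc15, seen on activated fibroblasts, changed by -5.25 ± 0.11 and -4.82 ± 0.082. The phosphodiesterase Pde8b and the microtubule protein Map2 changed by -4.66 ± 0.11 and -4.52 ± 0.074.

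Every measured gene of the mitosis and DNA replication lists fell. Of 46 mitosis and kinetochore genes, 46 were lower, 45 at least 2-fold, with a median of -1.75. Ccnb2, a mitotic cyclin, was the one under 2-fold, at -0.92 ± 0.062. Of 40 DNA replication genes, 40 were lower, 32 at least 2-fold, with a median of -1.36. The background was 41.9% lower and 12% at least 2-fold lower. The summed level of the mitosis genes was 2372 to 2457 RPM in day 21 wells, against 7989 to 8088 RPM in day 1 wells, and that of the replication genes 1646 to 1715 RPM in day 21 wells, against 4279 to 4303 RPM in day 1 wells, so both kinds of transcript were still present at day 21.

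Mki67, a marker of cycling cells, had 158, 151 and 165 RPM in day 21 wells, against 555, 557 and 575 RPM in day 1 wells, a log2 fold change of -1.83 ± 0.037, adjusted p = 1.18e-22. Mybl2, which turns on mitotic genes, had 5.38, 5.70 and 5.76 RPM in day 21 wells, against 74.2, 74.0 and 71.7 RPM in day 1 wells. Cdk1, the mitotic kinase, had 40.4, 38.0 and 39.6 RPM in day 21 wells, against 189, 183 and 189.5 RPM in day 1 wells. The kinesins Kif11 and Kif23, the separase Espl1 and the ubiquitin enzyme Ube2c changed by -2.27 ± 0.051, -2.39 ± 0.044, -2.27 ± 0.045 and -2.26 ± 0.037. Among replication genes, Prim1 of primase and Ccne1, the cyclin of S phase entry, changed by -2.18 ± 0.080 and -2.11 ± 0.062. Uhrf1, which keeps DNA methylation, had 39.5, 41.7 and 39.9 RPM in day 21 wells, against 166, 164 and 167 RPM in day 1 wells, and Cdc6, Ccne2 and Mcm10 changed by -1.89, -1.99 and -1.85. All of these genes had every day 21 well below every day 1 well, as did 41.9% of all tested genes. Apart from Mki67, they were named for the size of their change.

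Promoter stretches of 4 mitotic genes are printed because they hold both motifs known from genes repressed in resting cells, the cell cycle genes homology region (TTTGAA) and the CCAAT box (CCAAT), searched on both strands and shown in capitals. They were chosen for holding both. Sequences are from RefSeq on GRCm38.p6, each on its gene's strand and ending just before the annotated start: Cdc20 at chr4:118437344-118437463 (minus strand), Kif11 at chr19:37376262-37376381 (plus strand), Ncapg at chr5:45669725-45669924 (plus strand) and Espl1 at chr15:102296173-102296292 (plus strand).
Cdc20: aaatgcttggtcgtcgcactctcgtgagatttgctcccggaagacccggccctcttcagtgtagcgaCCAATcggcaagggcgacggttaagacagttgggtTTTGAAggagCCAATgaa
Kif11: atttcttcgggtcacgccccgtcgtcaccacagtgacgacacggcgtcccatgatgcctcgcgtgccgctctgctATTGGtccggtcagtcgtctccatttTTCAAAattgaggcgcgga
Ncapg: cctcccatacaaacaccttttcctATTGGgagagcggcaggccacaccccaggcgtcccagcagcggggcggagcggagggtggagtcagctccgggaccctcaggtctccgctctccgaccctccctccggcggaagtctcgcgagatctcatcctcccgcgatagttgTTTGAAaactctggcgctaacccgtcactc
Espl1: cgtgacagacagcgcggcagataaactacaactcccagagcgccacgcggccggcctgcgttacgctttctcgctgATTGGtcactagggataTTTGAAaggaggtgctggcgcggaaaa
The homology region begins 18, 19, 30 and 27 bases before the start in Cdc20, Kif11, Ncapg and Espl1. It was in 13 of 37 mitosis promoters of 250 bases (35.1%), against 16.3% of all promoters, and the CCAAT box was in 27 of 37 (73.0%), against 34.5%. Over promoters of tested genes the shares were 10.4% and 36.8%. The E2F core TTCCCGC was in 7 of 31 replication promoters (22.6%), against 3.84% of all promoters and 7.11% of those of tested genes. Cdc20, the activator of mitotic exit, had 66.4, 65.2 and 71.2 RPM in day 21 wells, against 171, 179 and 169 RPM in day 1 wells, and the condensin subunit Ncapg had 25.03, 23.8 and 25.7 RPM in day 21 wells, against 86.6, 90.3 and 90.2 RPM in day 1 wells.

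Inhibitors of the cell cycle were mostly higher. Of 15 measured, 11 were higher, 4 of them at least 2-fold, and Cdkn1b, Cdkn2d and Rbl1 were lower, with a median of 0.83. Cdkn2b (p15) had 193, 189.7 and 199.96 RPM in day 21 wells, against 59.9, 53.8 and 56.0 RPM in day 1 wells. Gas1, induced at growth arrest, had 547, 555 and 567 RPM in day 21 wells, against 199.6, 190.4 and 194 RPM in day 1 wells. Cdkn2a had 237, 230.0 and 237 RPM in day 21 wells, against 132, 130.1 and 132 RPM in day 1 wells, a total over p16 and Arf transcripts that share exons. Cdkn1a (p21) had 14.4, 15.5 and 13.2 RPM in day 21 wells, against 7.18, 6.83 and 7.71 RPM in day 1 wells. Rbl1 and Rbl2, relatives of the retinoblastoma protein, changed by -1.28 ± 0.054 and 1.01 ± 0.059. Targets of p53 had no common direction, 8 of 18 higher and 9 lower. Trp53inp1 had 60.8, 62.5 and 60.8 RPM in day 21 wells, against 1.73, 2.08 and 2.77 RPM in day 1 wells, Sesn1 changed by 1.99, and Gtse1, itself a cell cycle gene, by -2.07. Plk2, Tnfrsf10b and Phlda3 changed by -1.83, -1.19 and -1.13.

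Lysosome genes rose without exception. Of 40 measured genes of the lysosome and its proton pump, 40 were higher, against 41.7% of all genes, and 24 were at least 2-fold higher, with a median of 1.12. Ctsl, a cysteine protease, had 1308, 1366 and 1287 RPM in day 21 wells, against 215, 209 and 216 RPM in day 1 wells. Npc2, which exports cholesterol, had 671, 681 and 692 RPM in day 21 wells, against 125, 125 and 129 RPM in day 1 wells. Ctsd, an aspartic protease, had 391, 394 and 391 RPM in day 21 wells, against 101, 100.1 and 98.7 RPM in day 1 wells. Ctsh, Ctsf and Gpnmb changed by 3.24 ± 0.13, 2.37 ± 0.13 and 2.98 ± 0.090. The smallest change in the list was 0.13.

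Targets of NRF2, the regulator of defence against oxidants, were higher in 16 of 18 members, 13 at least 2-fold, with a median of 1.63. The superoxide dismutases Sod3 and Sod2 changed by 3.22 ± 0.092 and 2.27 ± 0.028. The glutathione transferases Gstm1 and Gstm2, which are close in sequence, changed by 2.99 and 2.91, and Gpx3 by 2.50. Slc7a11, which imports cystine, had 226, 232 and 214 RPM in day 21 wells, against 42.6, 45.7 and 45.5 RPM in day 1 wells. It is also on the list of ATF4 targets and unfolded protein genes, of which 16 of 22 were higher and 6 lower, with a median of 0.69. The chaperone partners Dnajb9 and Sdf2l1 and the membrane protein Herpud1 changed by 2.30 ± 0.051, 1.73 ± 0.054 and 1.598 ± 0.044, and Chac1, which degrades glutathione, by 1.13.

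Nuclear genes of the respiratory chain changed little. Of 39 measured, 17 were higher and 14 lower, and none reached 2-fold. Atp5b changed by -0.81 and Ndufa1 by 0.66. Of 13 listed genes of the mitochondrial genome 6 had no read in any vector well, and the cause was not tested. Of the 7 measured, 6 were higher, with mt-Nd1 at 6249, 5416 and 5807 RPM in day 21 wells, against 1987, 2051 and 2042 RPM in day 1 wells. Their summed level was 22262 to 24934 RPM in day 21 wells, against 10099.8 to 10805 RPM in day 1 wells. The mitochondrial share of reads moved with them, and what part it had in other results was not tested. Cytosolic ribosomal proteins were lower in 31 and higher in 11 of 53, with a median of -0.20. Rpl27 and Rpl3 changed by -1.08 and -1.08. These genes have many pseudogenes, so their low levels are uncertain. Histone genes were below the filter in 17 of 23, and of 6 measured 4 were higher and 2 lower. Hist1h2bc and Hist1h1c rose most, at 1.76 and 1.68.

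Genes of fat metabolism rose in part. Of 14 measured adipocyte genes 12 were higher and Pparg, the adipocyte master factor, was lower, with 6.20, 6.52 and 5.45 RPM in day 21 wells, against 8.18, 6.90 and 7.56 RPM in day 1 wells, a call that several settings lost. The fatty acid carrier Fabp4 had 61.2, 65.9 and 55.1 RPM in day 21 wells, against 9.09, 9.28 and 9.51 RPM in day 1 wells. The lipases Lipe and Lpl changed by 2.90 ± 0.10 and 1.74 ± 0.040, Dgat2, which makes triglyceride, by 2.80 ± 0.10, and the droplet coat gene Plin2 by 1.56 ± 0.032. Sterol and fatty acid synthesis genes were higher in 21 of 30 and lower in 4, with a median of 0.45. Scd1, which desaturates fatty acids, changed by 1.58 ± 0.027, and Insig1, which restrains sterol synthesis, by 1.08. The sterol response core TCACNCCAC was in 1 of 20 members' promoters (5%), against 1.04% of all promoters and 0.967% of those of tested genes. Genes of glycolysis and hypoxia split, 12 higher and 11 lower of 26. Aldoc and Ldhb were higher by 2.66 and 2.60, Vegfa by 1.26 and Ndrg1 by 1.33. Eno1 was lower at -1.35 and Eno2 higher at 1.43.

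Chemokine genes were mostly higher. Of 26 measured chemokines and inflammatory cytokines, 18 were higher, 13 at least 2-fold, and 4 lower, with a median of 1.203. Cxcl5, which draws neutrophils, had 514, 433 and 424 RPM in day 21 wells, against 1.999, 2.23 and 2.02 RPM in day 1 wells. Cxcl1, of the same class, had 212, 219 and 195 RPM in day 21 wells, against 2.45, 3.27 and 3.52 RPM in day 1 wells. Ccl2, which draws monocytes, had 617, 623 and 588 RPM in day 21 wells, against 70.1, 65.0 and 67.4 RPM in day 1 wells. Day 21 wells stood above day 1 wells for all of them, as for 41.8% of all tested genes, and for Cxcl5 that was a condition of naming. Nos2, the inducible nitric oxide synthase, changed by 4.61 ± 0.13, Cxcl16 by 3.11 ± 0.11 and Ccl7 by 2.75 ± 0.061. Cxcl13 had 4.48, 5.77 and 2.34 RPM at day 21 and no read at day 1, at least 52.9-fold higher against the same floor.

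Interferon-stimulated genes varied among the day 21 wells. They are induced by type I interferon. Of 27 measured, 20 were higher, 7 did not pass the test and none was lower by it, with a median of 0.82. The list median of the single day 21 wells was 0.76, 1.47 and 0.49, so replicate 2 was the highest and replicate 3 the lowest. Without replicate 2 the count was 17 higher and 2 lower, and the median 0.44. Bst2 (tetherin) had 136, 137 and 116 RPM in day 21 wells, against 21.2, 26.1 and 20.3 RPM in day 1 wells, a log2 fold change of 2.48 ± 0.072, adjusted p = 1.33e-19. Irf7, an amplifier of the response, had 6.03, 9.90 and 3.35 RPM in day 21 wells, against 1.27, 1.19 and 0.674 RPM in day 1 wells. Parp14, Oasl2 and Oasl1 changed by 2.03 ± 0.14, 1.82 ± 0.14 and 1.34 ± 0.17. Ifit1 had 5.30, 18.1 and 2.18 RPM in day 21 wells, against 6.18, 3.34 and 5.32 RPM in day 1 wells, so its days overlapped.

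Promoters of 3 interferon-stimulated genes are printed because they hold repeats of the interferon-stimulated response element core (GAAA, any 2 bases, GAAA), searched on both strands and shown in capitals, where overlapping matches run together. Sequences are from RefSeq on GRCm38.p6, each on its gene's minus strand: Isg15 at chr4:156200819-156200958, Oas1a at chr5:120907526-120907665 and Bst2 at chr8:71537473-71537612.
Isg15: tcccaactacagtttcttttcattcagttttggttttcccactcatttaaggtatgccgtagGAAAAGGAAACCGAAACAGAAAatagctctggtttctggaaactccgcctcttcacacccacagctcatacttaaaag
Oas1a: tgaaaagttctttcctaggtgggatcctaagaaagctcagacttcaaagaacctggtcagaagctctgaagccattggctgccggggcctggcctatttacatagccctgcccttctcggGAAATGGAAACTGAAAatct
Bst2: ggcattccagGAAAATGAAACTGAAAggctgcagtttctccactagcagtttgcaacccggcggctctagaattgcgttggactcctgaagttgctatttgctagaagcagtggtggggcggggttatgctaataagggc
The motif was in 9 of 22 members' promoters of 250 bases (40.9%), against 3.04% of all promoters and 2.59% of those of tested genes. Among the 3 genes the day change differed widely. Isg15, a ubiquitin-like protein, had 7.75, 15.4 and 6.46 RPM in day 21 wells, against 4.91, 7.72 and 6.44 RPM in day 1 wells, which overlapped, and its call was lost under quantile normalization, at 0.24. Oas1a, a sensor of double-stranded RNA, had 4.24, 4.05 and 1.95 RPM in day 21 wells, against 0.454, 0.891 and 0.449 RPM in day 1 wells, which did not.

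Antigen presentation by MHC class I rose in full, 13 of 13 members higher and 8 at least 2-fold, with a median of 1.39. H2-K1 had 218, 223 and 208 RPM in day 21 wells, against 45.3, 43.6 and 44.0 RPM in day 1 wells. H2-D1 had 258, 271 and 222 RPM in day 21 wells, against 62.9, 64.7 and 69.3 RPM in day 1 wells. These class I heavy chains are alike in sequence, so the split between them is uncertain. The peptide transporter Tap1 had 16.9, 17.99 and 14.9 RPM in day 21 wells, against 3.36, 3.71 and 3.30 RPM in day 1 wells. Tap2, Tapbp (tapasin) and the immunoproteasome subunit Psmb9 changed by 1.498 ± 0.066, 1.91 ± 0.038 and 1.90 ± 0.13.

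Single growth factor genes changed strongly in both directions. Counts of calls of any size in the insulin-like growth factor, BMP and TGF-beta ligand, Wnt and FGF lists lay near the background of 41.7% higher and 41.9% lower. In the same order, 6 of 17, 4 of 34, 9 of 33 and 7 of 19 were at least 2-fold lower, against 12% of all genes. At least 2-fold higher were 4, 7, 6 and 5, against 16.1% of all genes. In the insulin-like growth factor axis 9 of 17 were higher and 8 lower, with a median of 0.13. Igf2 had 4.97, 3.67 and 3.66 RPM in day 21 wells, against 40.1, 41.6 and 40.5 RPM in day 1 wells. The binding protein gene Igfbp6, which prefers Igf2, had 1258, 1343 and 1367 RPM in day 21 wells, against 83.6, 74.6 and 78.5 RPM in day 1 wells. Igfbp4 had 1203, 1267 and 1228 RPM in day 21 wells, against 261, 245 and 262 RPM in day 1 wells, and Stc1, a secreted inhibitor of the protease that frees IGF, changed by 3.20 ± 0.092. The receptor substrate Irs1 and Igfbp2 were lower, at -2.32 ± 0.041 and -1.36 ± 0.21.

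Ligands, receptors and antagonists of the BMP and TGF-beta family divided into 12 higher and 16 lower of 34, with a median of -0.11. Inhba, the subunit of activin A, had 26.7, 22.8 and 25.6 RPM in day 21 wells, against 599.6, 626 and 649.6 RPM in day 1 wells. Tgfbr3, a coreceptor, had 403, 372 and 379 RPM in day 21 wells, against 46.7, 41.4 and 50.2 RPM in day 1 wells. The antagonist Chrd rose by 2.68 on the log2 scale, Acvr1b changed by 1.88 and Bambi by -1.79. Genes known to respond to these ligands were lower in 10 and higher in 3 of 15, with a median of -0.63. Pmepa1 and Tgfbi changed by -1.73 ± 0.033 and -1.78 ± 0.10, and the BMP targets Id2 and Id4 by -1.36 ± 0.11 and -2.78 ± 0.16.

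Wnt genes were higher in 11 and lower in 16 of 33, with a median of -0.13. Rspo3, which strengthens Wnt signals, had 29.8, 30.1 and 28.3 RPM in day 21 wells, against 6.09, 4.23 and 5.47 RPM in day 1 wells. The ligand Wnt5a had 41.3, 39.4 and 39.9 RPM in day 21 wells, against 142, 145 and 148 RPM in day 1 wells. The receptors Fzd2 and Fzd4 changed in opposite directions, at -2.08 ± 0.039 and 1.98 ± 0.051, and Wnt10b and Rnf43 changed by -1.80 and -1.78. In the FGF list 9 of 19 were higher and 7 lower, with a median of 0.03. Its feedback and target genes Spry1, Spry2, Etv4 and Dusp5 changed by -3.10 ± 0.090, -2.02 ± 0.048, -3.28 ± 0.059 and -2.31 ± 0.055, while the ligands Fgf2 and Fgf21 changed by 2.02 ± 0.059 and 2.19 ± 0.12. Of 10 Notch genes 5 were lower and 3 higher, against 41.9% and 41.7% of all genes. The receptor Notch1, the ligand Jag1 and the target Hes1 were lower, at -2.41 ± 0.073, -2.21 ± 0.054 and -2.27 ± 0.073, while Notch3 was higher at 1.08 ± 0.15. Immediate early genes, which answer serum and stress, were lower in 12 and higher in 6 of 19. Egr1 had 29.0, 29.6 and 27.5 RPM in day 21 wells, against 187, 189 and 200.5 RPM in day 1 wells. Nr4a1 and Ier2 changed by -2.43 and -1.79, and Klf4 rose, with 136, 145 and 135 RPM in day 21 wells, against 35.1, 33.6 and 33.8 RPM in day 1 wells.

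Embryonic growth and position genes were lower. Of 16 imprinted growth genes 11 were lower, 10 at least 2-fold, and 4 higher, with a median of -1.33. Dlk1, a membrane protein of progenitor cells, had 3.42, 5.10 and 2.65 RPM in day 21 wells, against 157, 156 and 156 RPM in day 1 wells. H19 had 167, 97.3 and 124 RPM in day 21 wells, against 592, 536 and 617 RPM in day 1 wells. Nnat, Peg3 and Plagl1 changed by -3.68 ± 0.12, -2.57 ± 0.062 and -1.96 ± 0.077. Of 26 measured Hox genes, which encode position along the body, 24 were lower and none higher, with a median of -1.21. Hoxb9 had 7.91, 6.75 and 7.86 RPM in day 21 wells, against 32.0, 32.1 and 33.0 RPM in day 1 wells. Hoxc4, Hoxc5, Hoxc9 and Hoxc10 changed by -1.92, -2.75, -1.91 and -1.82. Hoxa11 and Hoxb4 did not pass the test. Neighbouring Hox genes have overlapping transcripts, so reads of one may count for another.

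The day change in vector cells was last set against the same change in HOXB13 cells. The cells differ in sex-linked genes. Xist, the RNA of the inactive X, had 167, 151 and 157 RPM in day 21 wells, against 395, 452 and 433 RPM in day 1 wells in vector cells, and averaged 0.303 ± 0.164 RPM at day 21 and 0.332 ± 0.162 RPM at day 1 in HOXB13 cells. The Y-linked gene Ddx3y had at most 0.363 RPM in any vector well and averaged 106 ± 2.09 RPM at day 21 and 98.3 ± 1.32 RPM at day 1 in HOXB13 cells (SD, n = 3 each). Mesothelial markers summed to 4567 to 4663 RPM in vector wells at day 21 and to 112 to 132 RPM in HOXB13 wells at day 21. The part of these differences was not tested, and the vector's effect cannot be told apart from them.

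Of 13516 genes, 9220 had a day change that differed between vector and HOXB13 cells (68.2%). Only 89 genes (0.658%) were at least 2-fold changed in opposite directions with all 3 tests passed, 56 higher and 33 lower in vector cells at day 21. Kcnj2, a potassium channel, had 6.69, 5.17 and 7.16 RPM in day 21 wells, against 1.27, 1.11 and 1.35 RPM in day 1 wells in vector cells, and 5.16, 4.75 and 5.15 RPM at day 21 and 109, 112 and 111 RPM at day 1 in HOXB13 cells. The difference of the day changes was 5.91 ± 0.14, adjusted p = 3.32e-20. Adgrg1, an adhesion receptor, had 61.9, 70.1 and 68.7 RPM in day 21 wells, against 6.72, 5.57 and 6.14 RPM in day 1 wells in vector cells, and 0.455, 0.156 and 0.557 RPM at day 21 and 2.91, 2.72 and 2.09 RPM at day 1 in HOXB13 cells. The peptidase gene Dpp4, the guanylate cyclase subunit gene Gucy1a1 and the peptide hormone gene Apln differed by 4.46, 4.83 and 4.76, in each case higher at day 21 in vector cells and lower in HOXB13 cells.

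Postn had the lowest difference among the named genes, -5.91 ± 0.091, adjusted p = 1.02e-23. It had 1941, 1862 and 2041 RPM at day 21 and 198, 202 and 223 RPM at day 1 in HOXB13 cells, where it was higher at day 21, while it was lower in vector cells. The growth factor gene Nrg1, the laminin gene Lama1 and the chemokine gene Cxcl14 differed by -4.15, -4.61 and -3.87. All 27 interferon-stimulated genes differed in their day change between the cells. Their median was 0.82 in vector cells, against -1.59 in HOXB13 cells, and Irf7, the list's most different gene, differed by 4.4004 ± 0.30, adjusted p = 5.52e-12. All 12 mesothelial markers differed too.

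The acute-phase change was in both cells, with sizes that differed. Saa3 averaged 12401 ± 579 RPM at day 21 and 7.45 ± 0.0677 RPM at day 1 in HOXB13 cells, and the day changes differed by -1.51 ± 0.072, adjusted p = 8.39e-15. Lcn2 differed by -1.09 ± 0.082, adjusted p = 3.62e-11, with the smaller rise in vector cells. Alpl rose more in vector cells, with 13.4 ± 1.09 RPM at day 21 and 0.430 ± 0.0233 RPM at day 1 in HOXB13 cells and a difference of 2.11 ± 0.14, adjusted p = 2.47e-12. With Alpl under 1 RPM at day 1 in HOXB13 cells, that size rests on the pseudocount: the difference was 1.33 with a pseudocount of 0.25, 0.81 with edgeR's quasi-likelihood test (adjusted p = 0.049) and 0.76 with DESeq2 (adjusted p = 0.0476). Smpd3 was higher at day 21 in vector cells and averaged 2.20 ± 0.861 RPM at day 21 and 7.18 ± 0.930 RPM at day 1 in HOXB13 cells, a difference of 3.14 ± 0.17, adjusted p = 8.45e-14. Acta2 fell in both, and its day changes differed by 0.12 ± 0.044, adjusted p = 0.024, a call lost without the filter (adjusted p = 0.0911) and when vector day 1 replicate 3, HOXB13 day 21 replicate 3 or HOXB13 day 1 replicate 1 was left out (adjusted p = 0.0524, 0.0923 and 0.0845).

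**Figure D5:**
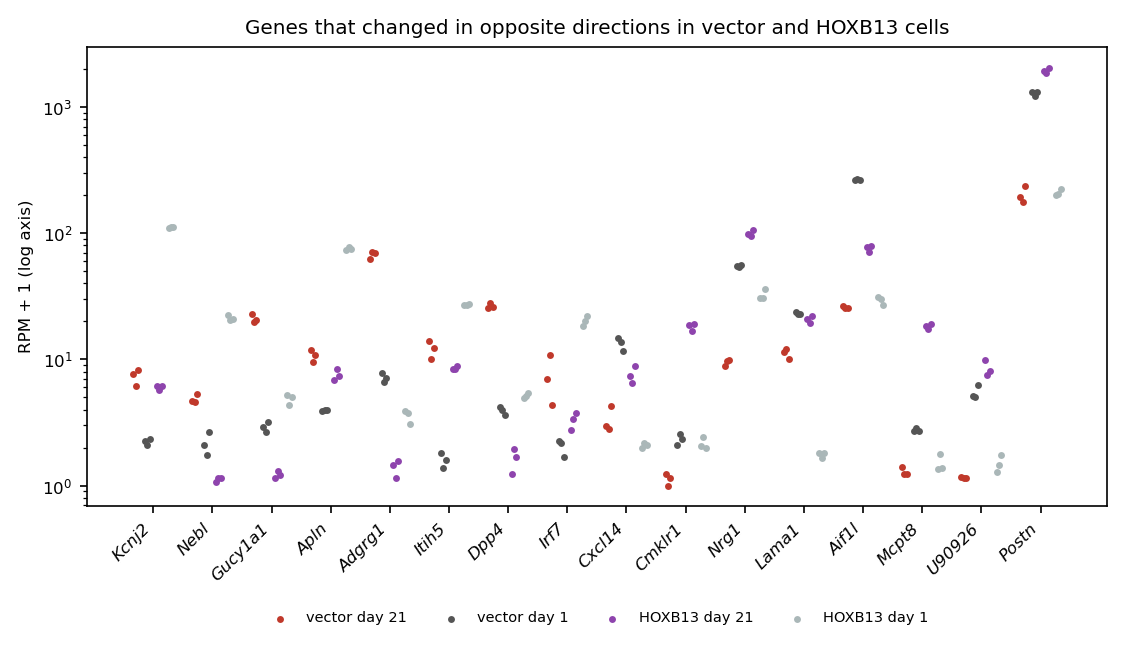
RPM + 1 on a log axis for the 16 named genes that changed in opposite directions, 1 point per well, with vector day 21, vector day 1, HOXB13 day 21 and HOXB13 day 1 from left to right for each gene. The 8 genes on the left are higher at day 21 in vector cells, and the 8 on the right are lower.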

How the data were processed

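The labels describe 12 strand-specific mRNA-seq libraries of RNA from RCAS-GFP (vector) and RCAS-HOXB13 mouse embryonic fibroblasts at day 1 and day 21, 3 wells per group, of which the 6 vector libraries are described here. The submitters' processing notes name the aligner STAR 2.7.2a, the counter HTSeq 0.6.1 and, without versions, DESeq2 and edgeR. They also name a human build, although the gene IDs are those of mouse, so no coordinate was taken from the files. The deposited gene table holds signal values, reads per 1000000 (RPM) of the TMM-scaled library size, for each gene. With a tolerance of 0.01, 100% of nonzero values were whole reads once divided by the worth of 1 read, so reads could be recovered. Gene coordinates of promoters are from RefSeq tables on GRCm38.p6.

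Genes reaching 1 RPM in 3 or more libraries entered a test with limma 3.58.1 (R 4.3.3, eBayes with a mean trend, two-sided) on log2(RPM + 1) over all 12 libraries, with 1 mean per group and Benjamini-Hochberg adjustment over 13516 genes. The pseudocount understates changes of low genes. The members and the gene lists were chosen with earlier results of these data known. Lists are described by counts and medians without a test. Genes were named by rule: the 12 highest and 12 lowest fold changes, the most abundant genes at least 2-fold changed, up to 6 members per list, a few fixed genes and, for the difference to HOXB13 cells, 8 per direction. The 12 highest and 12 lowest had to pass the test, average at least 5 RPM on 1 day and not overlap between days. Other names are exceptions or were chosen after their values were seen. Some rule-named genes are left out of the text. Simulated counts covered these 13516 genes, with 50 genes changed at each fold and all the rest unchanged. There the test found 48%, 88%, 98% and 100% of genes changed 1.2-, 1.5-, 2- and 4-fold, and 6.18% of its calls were false. For the difference to HOXB13 cells it found 34%, 80%, 94% and 100%, and 9.41% of calls were false. In the data far more genes passed, 83.6% in the vector comparison, so these rates do not describe the calls made here. Alternatives were other pseudocounts, filters and scalings, edgeR 4.0.16 and DESeq2 1.42.0 on recovered reads, a replicate block, the vector libraries alone and leaving out each library. Intervals and floors cover counting error only.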

Additional observations from a re-analysis of the deposited data

Results flagged for a closer look

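Genes whose day change went one way in vector cells and the other way in HOXB13 cells are given here because the difference between both changes passed its own test in the same limma fit. There were 89 such genes at least 2-fold changed both ways. Differences are log2 day change in vector cells minus log2 day change in HOXB13 cells, for the 8 highest and 8 lowest. Higher at day 21 in vector cells and lower in HOXB13 cells were Kcnj2 (5.91), the actin-binding protein gene Nebl (5.42), Gucy1a1 (4.83), Apln (4.76), Adgrg1 (4.62), Itih5, of the inter-alpha-trypsin inhibitor family (4.58), Dpp4 (4.46) and Irf7 (4.4). Lower at day 21 in vector cells and higher in HOXB13 cells were Postn (-5.91), U90926 (-4.74), the mast cell protease gene Mcpt8 (-4.73), Aif1l (-4.73), Lama1 (-4.61), Nrg1 (-4.15), the chemerin receptor gene Cmklr1 (-4.12) and Cxcl14 (-3.87). All 16 kept sign and call under the 22 alternatives run for each. Vector and HOXB13 cells also differ in Xist, Y-linked and mesothelial genes, and the part of that in these differences was not tested.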

How the results depend on the processing

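The counts of genes called in vector cells kept within 1.5 times of their value under every alternative run, 10806 to 12626 against 11294, apart from genes at least 2-fold higher, 1447 with a pseudocount of 4 against 2173. The share called did depend on the filter. Without a filter 12626 of 29400 genes were called (42.9%), against 83.6% of 13516. Genes changed in opposite directions in vector and HOXB13 cells numbered 143 with a pseudocount of 0.25, 36 with one of 4, 189 with edgeR and 176 with DESeq2, against 89. Leaving out 1 library gave 11037 to 11292 called genes, 5511 to 5633 higher, 5520 to 5661 lower, 2155 to 2188 and 1599 to 1638 at least 2-fold higher and lower, 8861 to 9012 differing from HOXB13 cells and 81 to 93 opposite. Quantile normalization called 5143 higher and 6178 lower. No scaling moved the median of all genes by more than 0.079.

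Same-numbered wells did not deviate together (residual correlations of -0.018, -0.020 and 0.0045 over 11382 genes). The wells of a day are too alike for this to show whether same-numbered wells share a source, and the labels do not say. The replicate block gave 11289 called genes and 9182 differing from HOXB13 cells.

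Of 8440 values of 368 named genes, 8367 kept direction and side of the threshold, 44 lost it, 12 gained it and 17 changed sign. Those 17 belong to genes that did not pass the test. Atf4 turned to 0.0060 (median of ratios), 0.066 (quantile) and 0.0062 (DESeq2). Leaving out 1 library gave Hoxb13 -0.16 to 0.045, Hoxa11 -0.19 to 0.053, Ifit1 -0.38 to 0.92 and Ddx3y -0.15 to 0.073. Omd is the median member of the small leucine-rich proteoglycans, so its value and that median are one: 0.032 (pseudocount 0.25), 0.0039 (median of ratios), 0.0012 (without TMM factors) and -0.14 to 0.099 when 1 library was left out. That median was 0.74 with the filter of 5 RPM.

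Other list medians that changed sign were collagens (-0.013 with the filter of 5 RPM, -0.00018 to 0.057 when 1 library was left out), histones (-0.33 without a filter), cartilage markers (0 without a filter, 0.18 with the filter of 5 RPM), tendon markers (-0.15 under quantile normalization, -0.13 to 0.30 when 1 library was left out), epithelial markers (0 without a filter) and neural markers (0.00033 without a filter). Of 1219 list medians, 187 more moved by over the spread between wells without a change of sign, and 47 of 2438 list counts moved by over 1.5 times. The bone matrix median ran from 0.26 to 1.22, adipocyte genes from 0.46 to 1.36, chemokines from 0.62 to 1.84 and Notch genes from -1.23 to -0.24. The cause was not tested. Apart from the fit without a filter, changes of genes that did not reach the filter were not tested.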
